A study of Sus scrofa with 31 samples.

Results

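S100A12, FCN2 and SLC11A1 are 3 genes of innate defence, taken by name from the 31907 genes of a count table of sorted pig microglia, alveolar macrophages and hippocampal tissue. They were chosen because they were far higher in alveolar macrophages than in microglia, so their difference between those cells is described here and was not tested. All 3 were among the 11633 genes with enough counts to be tested, and each passed that filter through the alveolar macrophages alone.

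RNA was sequenced from 31 samples of male piglets, 15 by the tag numbers in the labels although the study's methods give another number, of a Large White × Landrace by Duroc cross, aged 24 to 26 days, with 1 piglet per litter and no treatment given in the labels. Microglia, the resident macrophages of the brain, were sorted as CD11b-high CD45-low cells from the cerebellum, frontal cortex and hippocampus (n = 8 each). Macrophages were sorted from lung lavage (n = 3) as F4/80-positive cells with low CD163, and whole hippocampus (n = 4) was taken without sorting. Housing differed between litters and is not given per sample. Each library had 18438494 to 43477403 counts. Levels are CPM, the counts of a gene relative to all counts of its library, with TMM scaling between libraries, and 3 counts, the floor used here, stand for 0.064 to 0.146 CPM; this floor covers counting error only.

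S100A12 encodes a small protein that binds calcium, zinc and copper, is stored by neutrophils and monocytes, and alerts other cells through pattern receptors when released. FCN2 encodes a ficolin, a soluble lectin that binds sugars and acetyl groups on microbes and recruits MASP proteases to start the lectin pathway of complement. SLC11A1, also called NRAMP1, encodes a transporter that moves iron and manganese out of the phagosome, which starves engulfed bacteria. Together they act on microbes by metal binding, tagging and metal removal.

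In the Sscrofa11.1 assembly with RefSeq annotation, S100A12 lies at chr4:96225691-96227030 on the plus strand, with 3 exons and a coding sequence of 279 bases. FCN2 lies at chr1:274106276-274111970 on the plus strand, with 9 exons and a coding sequence of 972 bases. SLC11A1 lies at chr15:120434100-120446396 on the plus strand, with 15 exons and a coding sequence of 1617 bases. The 250 bases before each annotated start are shown because all 3 genes had their highest level in macrophages, the pattern they were chosen for. Capitals mark matches, on either strand, to any of 4 sequence motifs of myeloid or core promoters: the PU.1 core GAGGAA, the AP-1 site TGANTCA, the C/EBP site TTNCNNAA and the TATA box TATAAA. The windows are chr4:96225441-96225690, chr1:274106026-274106275 and chr15:120433850-120434099.

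S100A12: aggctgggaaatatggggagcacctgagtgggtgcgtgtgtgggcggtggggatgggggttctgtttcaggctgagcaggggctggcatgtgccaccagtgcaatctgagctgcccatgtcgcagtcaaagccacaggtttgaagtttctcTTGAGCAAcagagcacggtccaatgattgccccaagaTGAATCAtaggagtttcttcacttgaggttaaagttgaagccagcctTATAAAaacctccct
FCN2: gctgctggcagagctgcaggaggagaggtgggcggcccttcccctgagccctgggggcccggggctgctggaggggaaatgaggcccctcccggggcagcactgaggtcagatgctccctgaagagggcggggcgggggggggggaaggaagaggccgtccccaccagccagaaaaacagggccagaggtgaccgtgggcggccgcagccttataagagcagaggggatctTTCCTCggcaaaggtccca
SLC11A1: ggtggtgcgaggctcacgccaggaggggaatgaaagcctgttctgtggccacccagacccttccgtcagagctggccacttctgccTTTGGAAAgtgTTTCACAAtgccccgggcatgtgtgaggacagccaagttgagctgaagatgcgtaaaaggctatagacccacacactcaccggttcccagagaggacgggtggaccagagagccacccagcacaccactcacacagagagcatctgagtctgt

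The S100A12 window held a TATA box that began 15 bases before the start, an AP-1 match at 62 bases (TGAATCA) and a C/EBP match at 99 bases. The FCN2 window held 1 PU.1 core match, on the minus strand 19 bases before the start. The SLC11A1 window held 2 C/EBP matches, at 164 and 153 bases. No motif was shared by all 3 windows. Of 19556 promoters of the same length, 22% held the PU.1 core, 5.27% the AP-1 site, 31.7% the C/EBP site and 9.77% the TATA box. These matches are letters in a window, not measured binding. The annotated starts of FCN2 and SLC11A1 lie only 3 and 7 bases before the coding start, so the place of these windows rests on short gene models.

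S100A12 was read at 161 CPM in the macrophages of pig 12821, 170 CPM in pig 12829 and 450 CPM in pig 12984, a mean of 260 ± 164 CPM (SD, n = 3). In the 24 microglia libraries it ran from 0 to 1.32 CPM with a median of 0, and the mean was 0.203 ± 0.328 CPM (SD, n = 24). In hippocampal tissue it was 0 CPM in pigs 12821, 12847 and 12872 and 0.116 CPM in pig 12829. The macrophage and brain libraries did not overlap: the mean macrophage level was 1282-fold that of microglia, and the lowest macrophage library was still 793-fold above the microglia mean.

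FCN2 was read at 60.8, 148 and 417 CPM in the macrophages of pigs 12821, 12829 and 12984, a mean of 209 ± 186 CPM (SD, n = 3). Its highest value in any microglia library was 0.167 CPM, and 19 of the 24 microglia libraries had no count. In hippocampal tissue its values were 0, 0.116, 0.123 and 0.0300 CPM in pigs 12821, 12829, 12847 and 12872. Against the floor of 3 counts per library, the mean macrophage level was at least 1885-fold higher than that of microglia.

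SLC11A1 was read at 26.5, 27.7 and 61.0 CPM in the same 3 macrophage libraries, a mean of 38.4 ± 19.6 CPM (SD, n = 3). It had no count in any of the other 28 libraries. Its macrophage mean was therefore at least 347-fold above the microglia floor and at least 425-fold above the floor of the hippocampal tissue. Among the genes tested, 0.0258% had counts in the macrophages alone. These were SLC11A1, the receptor gene ADGRE3 and ENSSSCG00000039672, which has no symbol here; the last was named after its values were seen.

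Every macrophage library lay above every microglia library for all 3 genes, which was also so for 17.3% of the genes tested. With a 3-fold change and an adjusted p below 0.01 as the call (edgeR quasi-likelihood test), 10.1% of the genes tested were higher in macrophages and 12.2% were higher in microglia. The 3 genes were chosen on this contrast, so nothing is read from their place in it. In these bulk samples, fewer cells with a transcript cannot be told apart from less transcript per cell.

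**Figure D1:**
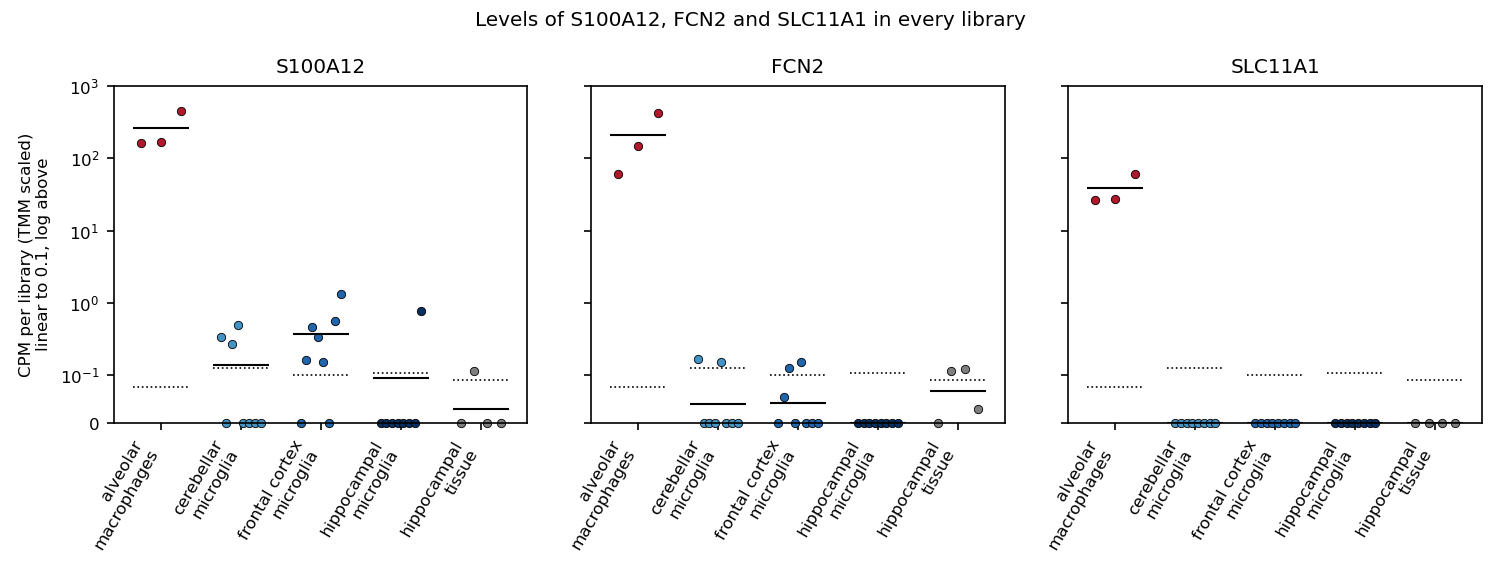
Level of each gene in every library, in TMM-scaled CPM on an axis that is linear to 0.1 and logarithmic above, by group. Points are libraries, solid lines are group means and dotted lines are the mean floor of 3 counts; the 3 macrophage libraries sit between 26.5 and 450 CPM, and no brain library passes 1.32 CPM.

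Scaling by length allows a rough comparison of different genes. It is rough because the lengths are of RefSeq exons, while the counts rest on Ensembl release 99. Per kilobase of annotated exon, the macrophage level was 719 ± 454 CPM per kb for S100A12, 176 ± 157 for FCN2 and 18.6 ± 9.45 for SLC11A1 (SD, n = 3). S100A12 thus had the highest level for its length of the 3 and SLC11A1 the lowest. Without the scaling by length, S100A12 ranked 447th, FCN2 643rd and SLC11A1 4454th by mean CPM among the 8094 genes over 10 CPM in all 3 macrophage libraries.

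Pigs 12821 and 12829 gave both macrophages and brain samples, so lung and brain can be set side by side within an animal. In pig 12821, S100A12 had 5874 counts in macrophages and none in its cerebellar microglia, hippocampal microglia or hippocampal tissue. FCN2 in that pig had 2219 counts in macrophages, 4 in cerebellar microglia and none in the other brain samples. In pig 12829, S100A12 had 6483 macrophage counts, none in hippocampal microglia and 4 in hippocampal tissue, and FCN2 had 5657, none and 4. The SLC11A1 counts of the same macrophages were 967 and 1057, against none in the brain samples of these animals. These are libraries on which the genes were chosen, so the values only describe the 2 animals.

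The 3 macrophage libraries were not alike. Pig 12984 had the highest value of all 3 genes, as it had for 36.2% of the genes over 10 CPM in these libraries. The highest library was 2.80-fold the lowest for S100A12, 6.86-fold for FCN2 and 2.30-fold for SLC11A1. A range at least as wide was seen in 2.9%, 0.334% and 5.83% of those genes. Without pig 12984 the ranges were 1.06-fold for S100A12, 2.44-fold for FCN2 and 1.05-fold for SLC11A1, and the macrophage means were 166, 105 and 27.1 CPM.

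Marker genes of other cells also differed between these libraries. The alveolar macrophage list (10 genes) summed to 778, 747 and 1348 CPM in pigs 12821, 12829 and 12984, the monocyte list (7 genes) to 422, 683 and 827 CPM, and the granulocyte list (13 of 15 genes) to 361, 548 and 599 CPM. All of these sums were highest in pig 12984. The lists hold relatives of S100A12 and FCN2 that were highest in that pig. They were S100A8 and S100A9 of the granulocyte list, at 60.8 and 136 CPM, and FCN1 of the monocyte list, at 192 CPM. Without S100A8 and S100A9 the granulocyte sum was highest in pig 12829, while the monocyte sum without FCN1 stayed highest in pig 12984. Of the other tested granulocyte genes, CSF3R and IL1R2 were highest in pig 12829, at 249 and 41.7 CPM. ARG1 and CXCR2 were highest in pig 12984, at 158 and 18.3 CPM. The T and NK cell list (9 genes) summed to 1192, 1624 and 848 CPM and the lung epithelium list (9 of 10 genes) to 119, 175 and 64.4 CPM. Both sums were lowest in pig 12984, but not every gene was. IL7R and NKG7 of the T and NK cell list were lowest in pig 12821. Of the lung epithelium genes, SFTPC, SFTPB, SFTPD, SCGB1A1, KRT8 and KRT18 were lowest in pig 12984. EPCAM and CDH1 were highest in that pig, at 19.3 and 23.6 CPM, and FOXJ1 lay between the other pigs. The B cell list (5 genes) summed to 561, 394 and 404 CPM.

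Defining markers did not all match the label of these libraries. MARCO, a scavenger receptor usual in alveolar macrophages, had no count in any of the 31 libraries, these 3 included. FABP4, a fatty acid binding protein also usual there, had no count in the 3 macrophage libraries. MRC1 was at 213 to 341 CPM, CD163 at 296 to 573 CPM and ADGRE1, which encodes the F4/80 antigen of the sort, at 63.0 to 142 CPM. The macrophage means were 62.2 CPM for FABP5, 56.8 for SIGLEC5, 44.9 for SIGLEC1, 29.3 for PPARG and 8.42 for MSR1. Of the granulocyte genes MPO and CD177 had no count, while CSF3R, a neutrophil growth factor receptor, was at 99.3 to 249 CPM. ARG1 was at 99.3 to 158 CPM, IL1R2 at 27.3 to 41.7 CPM and CXCR2 at 11.8 to 18.3 CPM. PADI4, ELANE, LTF, MMP9 and MMP8 were at 3.36 CPM or less. The part of lymphoid, monocyte or granulocyte cells in the levels of S100A12, FCN2 and SLC11A1 was not tested.

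**Figure D2:**
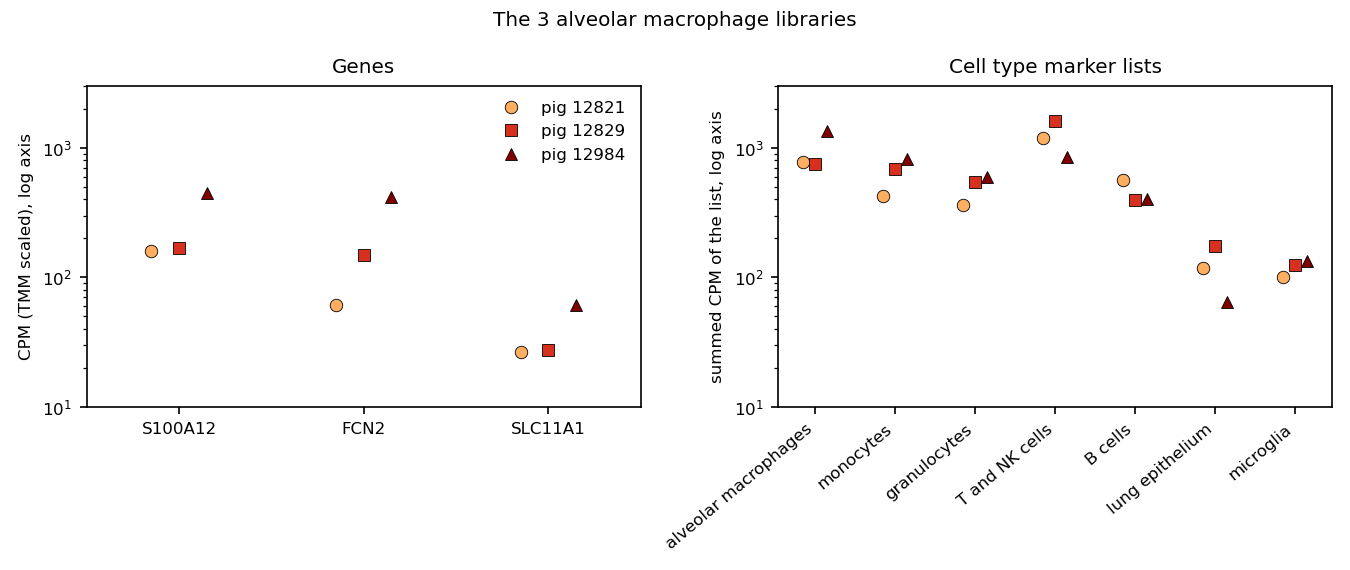
The 3 macrophage libraries by pig, on logarithmic axes, with the CPM of each gene at left and the summed CPM of each cell type marker list at right. Pig 12984 is highest for all 3 genes and for the sums of the alveolar macrophage, monocyte and granulocyte lists. It is lowest for the sums of the T and NK cell list (848 CPM) and the lung epithelium list (64.4 CPM). EPCAM and CDH1 of the lung epithelium list are highest in that pig. The granulocyte list includes S100A8 and S100A9 and the monocyte list FCN1, relatives of S100A12 and FCN2. Without S100A8 and S100A9 the granulocyte sum is highest in pig 12829.

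The brain samples were also compared among themselves. These contrasts were not the one used to choose the genes, but that choice favoured genes with microglia levels near 0, so the tests below are of limited use for all 3. S100A12 was the only one of the 3 with more than 5 counts in any microglia library. In frontal cortex microglia it had 41 counts in pig 12902, 19 in pig 12720, 12 in pig 12891, 10 in pig 12750, 6 in pig 12707, 5 in pig 12758 and none in the other 2. In cerebellar microglia it had 15 counts in pig 12758, 8 in pig 12583, 7 in pig 12750 and none in the other 5. In hippocampal microglia it had 21 counts in pig 12872 and none in the other 7. Counts thus came from 6 of 8 frontal cortex, 3 of 8 cerebellar and 1 of 8 hippocampal libraries, and the groups overlapped at 0.

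The S100A12 mean was 0.375 ± 0.433 CPM in frontal cortex, 0.139 ± 0.202 in cerebellar and 0.0953 ± 0.269 in hippocampal microglia (SD, n = 8 each), and 0.0291 ± 0.0582 in hippocampal tissue (n = 4). Below the macrophages, no 2 neighbours in this order differed beyond their spread. The F test over the 3 regions gave an adjusted p of 0.33 (edgeR), where 2.03% of the genes tested were called. The log2 difference was 1.96 (SE 1.00, adjusted p = 0.277, edgeR) for frontal cortex minus hippocampal microglia and -1.32 (SE 0.957, adjusted p = 0.49) for cerebellar minus frontal cortex microglia. Cerebellar minus hippocampal microglia gave 0.65 (SE 1.12, adjusted p = 0.817, edgeR). In these pairs 0.318%, 1.87% and 0.602% of the genes tested were called, so a region call was rare for any gene. With pig as a block the calls over regions fell from 236 to 85 genes and those of the pairs with the hippocampus from 37 to 1 and from 70 to 0; S100A12 was not called in any of them.

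The microglia library with the most S100A12, that of pig 12902 from frontal cortex, ranked 7th of 8 in its group for the granulocyte list at 6.63 CPM, 6th for the monocyte list at 219.9 CPM, 4th for the T and NK cell list at 45.7 CPM and 2nd for the B cell list at 76.3 CPM. The hippocampal microglia of pig 12872 ranked 5th for granulocyte genes at 28.8 CPM and for B cell genes at 66.7 CPM, and 1st for monocyte genes at 263 CPM and for T and NK cell genes at 81.0 CPM. The granulocyte list, with 5 to 7 of its 13 genes at 0 in each region, ran from 4.23 to 41.3 CPM over the microglia libraries. The monocyte list ran from 189 to 289 CPM and the T and NK cell list from 21.9 to 89.8 CPM. In microglia each of these sums rested mainly on 1 gene. Over all microglia the means were 21.4 CPM for CSF3R, 173 CPM for CD14, 32.1 CPM for CD2 and 70.1 CPM for CD79A. The T cell gene CD3E was at 0.455 CPM, and the B cell gene CD79B had no count. The ranks therefore do not measure how many cells of the named types were present. The part of such cells in the S100A12 counts was not tested.

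FCN2 had 5 counts in the frontal cortex microglia of pigs 12720 and 12758, 2 in pig 12707, and 4 in the cerebellar microglia of pigs 12583 and 12821. It had none in the hippocampal microglia, and 9 in all over the 4 tissue libraries. The adjusted p was 0.217 for the regions (edgeR). For hippocampal microglia against hippocampal tissue it was 0.0226 (edgeR), short of the 0.01 threshold, and both group means lay under the floor, so no fold change is given. S100A12 gave an adjusted p of 0.425 in the same comparison, where 11.7% of the genes tested were higher in microglia and 22.1% higher in tissue. None of the 3 genes was called there or between regions by edgeR, DESeq2 or limma-voom; at an unadjusted p under 0.05 edgeR gave 1 of them, FCN2, against tissue and in both pairs with hippocampal microglia, and the other tools gave 0. SLC11A1 had no count on either side. A missing call does not show that these levels were equal: the S100A12 counts varied widely within each region, and those of FCN2 lay near the floor.

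**Figure D3:**
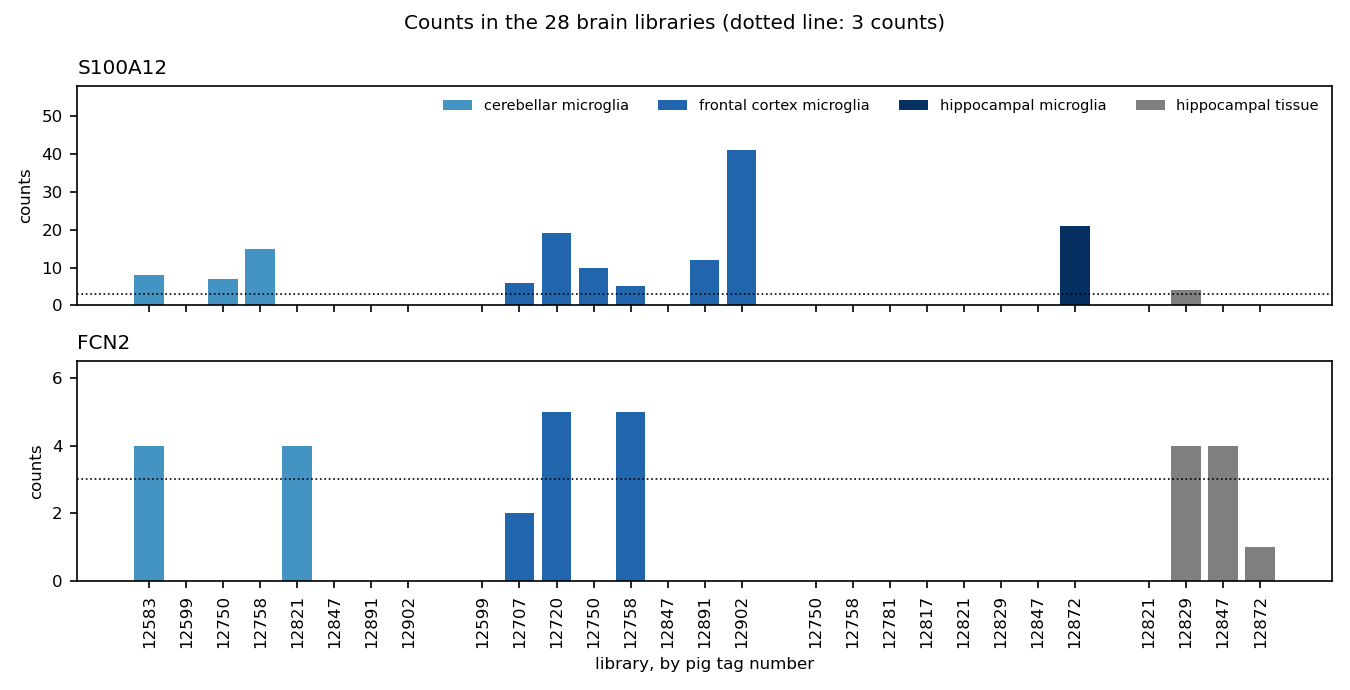
Counts of S100A12 and FCN2 in each of the 28 brain libraries, labelled by pig and coloured by group, with a dotted line at 3 counts. S100A12 reaches 41 counts in 1 frontal cortex library and is at 0 in 17 libraries, FCN2 never passes 5 counts, and SLC11A1 (not drawn) has none.

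The relatives of the 3 genes were compared through lists chosen with earlier results of these data known. Of the 48 other genes tested in 6 lists, 14 were higher in macrophages (29.2%) and 4 were higher in microglia (8.33%), beside 10.1% and 12.2% of all genes tested. With pig as a block, in which only 2 animals carry the contrast, 8 of them were higher in macrophages and 5 in microglia, beside 7.83% and 10% of all genes tested. In the fit without the block, S100A4, S100A6, S100A8, S100A9, FCN1, STEAP3, STEAP4 and LCN2 were called higher in macrophages. These genes averaged under 10 CPM in every other group, so they passed the filter through the macrophages alone. That favoured a call in this direction, so the shares of the lists are not read as a result. The calls of single genes given below are also from the fit without the block.

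In the S100 family 5 of the 8 other genes tested were higher in macrophages and none was higher in microglia, and the median log2 difference was 3.98, against -0.0583 over all genes tested. S100A4, S100A6, S100A8 and S100A9 passed the filter through the macrophages alone, so this count and median were partly set by the filter. One of the 8, S100PBP, encodes a binding partner and is no S100 protein. S100A9 and S100A8, whose products form the antibacterial protein calprotectin, flank S100A12. S100A9 was at 99.8 ± 31.8 CPM in macrophages and 0.531 ± 0.434 CPM in microglia, a log2 difference of 7.56 (SE 0.725, adjusted p = 4.19e-10, edgeR). S100A8 was at 45.4 ± 13.4 against 1.85 ± 1.17 CPM, a log2 difference of 4.72 (SE 0.713, adjusted p = 1.63e-06). Both had their highest value in pig 12984, at 136 and 60.8 CPM.

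The rest of the family did not follow one pattern. S100A4 and S100A6, linked to cell movement and growth, were at 31.9 and 43.3 CPM in macrophages and 0.0622 and 0.0602 CPM in microglia. Both microglia means lay under the floor, so the genes were at least 288-fold and 391-fold higher in macrophages (adjusted p = 2.67e-06 and 3.55e-10, edgeR). These bounds hold for the mean of all microglia, as single microglia libraries reached 1.22 CPM for S100A4 and 0.389 CPM for S100A6. In contrast to S100A12 they had their highest value in pig 12829. S100A10, the annexin A2 partner, differed by 3.25 (SE 0.216, adjusted p = 2e-13, edgeR), while its microglia level was 15.9 ± 4.57 CPM. S100A11 differed by 1.40 (SE 0.271, adjusted p = 5.91e-05, edgeR), under the fold threshold. S100A1 differed by 1.42 (SE 0.634, adjusted p = 0.0543, edgeR), and neither was called. By the same rough scaling, S100A12 stood at 719 CPM per kb in macrophages, above S100A11 at 197, S100A10 at 182, S100A9 at 130 and S100A8 at 118.

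None of the 3 tested receptors and adaptors that S100 proteins can engage was called. TLR4 had a log2 difference of -0.18 (adjusted p = 0.432, edgeR), and CD14 and MYD88 of -0.94 and -1.36, under the fold threshold. AGER, the receptor for advanced glycation end products, did not pass the filter and had mean levels of 10.9 CPM in macrophages and 21.3 CPM in microglia.

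In the lectin pathway list, 3 of the 10 other genes tested were higher in macrophages and 2 in microglia, with a median of 0.0105. FCN1, the ficolin of monocytes, was at 20.9, 86.8 and 192 CPM in the macrophages of pigs 12821, 12829 and 12984, the same order as FCN2, and at 0.196 ± 0.538 CPM in microglia. Its log2 difference was 10.02 (SE 0.977, adjusted p = 6.45e-10, edgeR). FCN1 lies 13696 bases after FCN2, and 245 of the 1137 stretches of 50 bases in the FCN2 transcript (21.6%) also occur in FCN1, so counts of the 2 genes may be partly shared. RefSeq also places an antisense transcript inside FCN2, on the minus strand, and the strand setting of the counting is not given in the sources used here, so its reads could not be told apart from those of FCN2. No such stretch is shared by S100A12 with S100A8 or S100A9, or by SLC11A1 with SLC11A2.

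Other parts of that pathway lay elsewhere. COLEC12, a scavenger collectin, and CFP, which encodes properdin, were higher in macrophages by 5.37 and 2.24 on the log2 scale. C3, the central complement component, was at 3468 ± 1120 CPM in microglia against 541 ± 127 CPM in macrophages, and SERPING1, the C1 inhibitor, at 116 ± 28.5 against 17.9 ± 3.49 CPM. MASP1 and MASP2, the proteases that ficolins recruit, were at 2.83 and 11.9 CPM in macrophages and 4.02 and 26 CPM in microglia, and neither was called.

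In the metal and iron list, 5 of the 26 other genes were higher in macrophages, 2 were higher in microglia, 14 were not called and 5 were not tested, with a median of 0.158. SLC11A2, the widely used relative of SLC11A1, was at 66.9 ± 6.14 CPM in macrophages and 29.0 ± 5.77 CPM in microglia, a log2 difference of 1.21 (SE 0.147) under the fold threshold. Its microglia level stands beside the absence of SLC11A1 counts in the same libraries. LCN2, which binds bacterial siderophores, differed by 4.98 (adjusted p = 3e-13, edgeR) and was highest in pig 12984 at 102 CPM. The iron reductase genes STEAP4 and STEAP3, FTH1 for ferritin heavy chain and TFRC, the transferrin receptor, were also higher in macrophages, by 5.60, 4.20, 1.97 and 1.96. SLC40A1, the iron exporter ferroportin, and CP, ceruloplasmin, were higher in microglia, with log2 differences of -3.03 and -1.98.

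Of the phagocyte oxidase genes, RAC2 was higher in macrophages by 3.94, and CYBA, NCF1 and NCF4 were not called. These genes were all higher in hippocampal microglia than in tissue. Of the 13 antimicrobial protein genes matched, only RNASE4 passed the filter, at 42.7 CPM in macrophages and 17.4 CPM in microglia, and it was not called. LYZ, for lysozyme, was at 6.50, 6.03 and 28 CPM in the macrophages of pigs 12821, 12829 and 12984 and 0.00972 CPM in microglia.

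**Figure D4:**
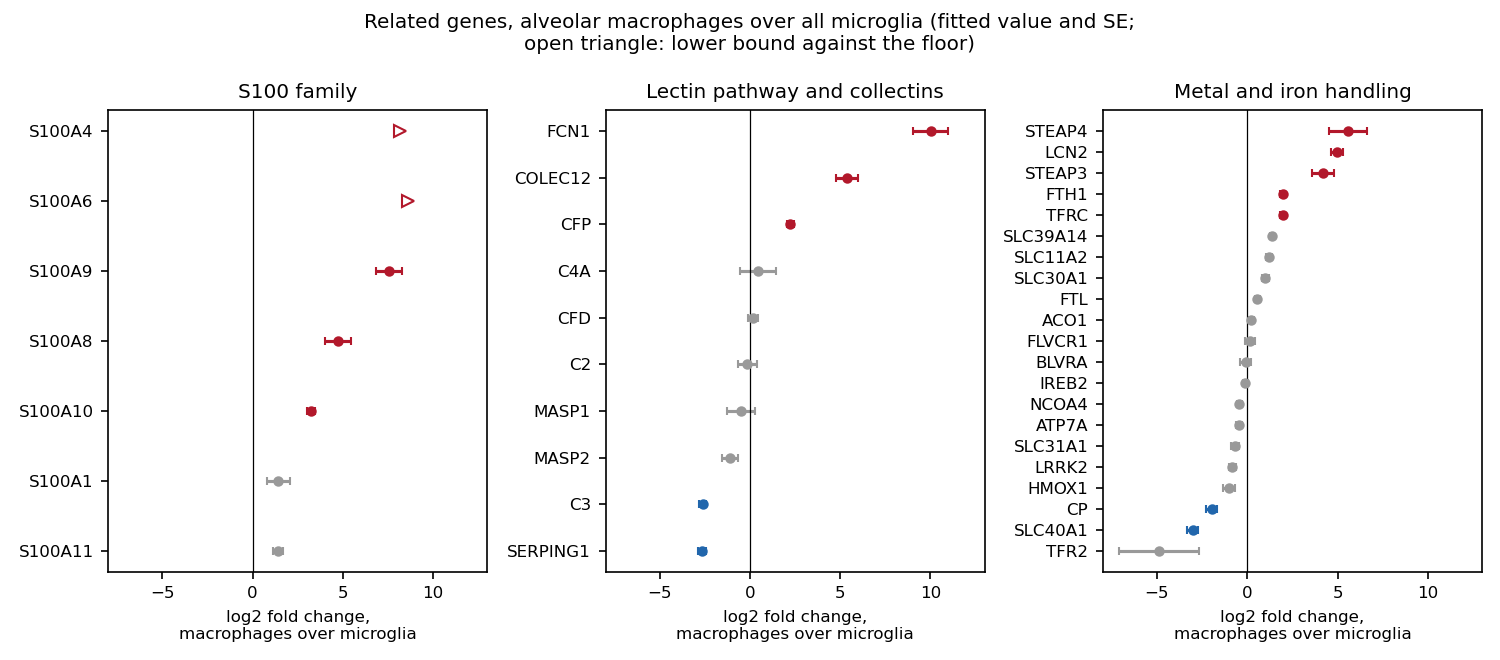
Fitted log2 fold change of macrophages over microglia with its SE for the other tested genes of 3 lists (S100PBP left out); red marks genes higher in macrophages, blue genes higher in microglia and grey genes not called. Open triangles give lower bounds, from microglia means under the floor of 3 counts, of 8.17 for S100A4 and 8.61 for S100A6. FCN1 reaches 10.02, while SLC11A2 lies at 1.21 and SERPING1 and C3 lie on the microglia side.

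The nearest genes around each of the 3 that could be matched to a gene of the data were also read. Annotated genes without a match were skipped, as on the way to IVL, which starts 429003 bases after S100A12. After FCN2 only FCN1 and OLFM1 were read, so these are not whole neighbourhoods. S100A8 ends 15088 bases before S100A12 and S100A9 starts 9084 bases after it, and both are far higher in macrophages, as given above. Beyond them S100A6 was at 43.3 CPM in macrophages, and S100A5, PGLYRP3 and IVL had no count in macrophages or microglia. FCN2 lies between FCN1 and COL5A1, a collagen gene 23012 bases before it that was higher in microglia, at 64.9 ± 17.8 against 4.96 ± 2.10 CPM. Further out, RXRA, WDR5 and OLFM1 had log2 differences, as microglia minus macrophages, of -0.80, -0.34 and 0.50, under the fold threshold.

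No tested neighbour of SLC11A1 passed the fold threshold. CTDSP1 starts 4253 bases after it and had 76.5 ± 5.15 CPM in macrophages and 47.2 ± 10.6 CPM in microglia, a log2 difference, as microglia minus macrophages, of -0.70 (SE 0.16). AAMP and USP37 had 58 and 65.6 CPM in macrophages and 60.5 and 52.2 CPM in microglia. PNKD was at 10.5 CPM in macrophages and 5.48 CPM in microglia and was not called. VIL1, at 2.06 and 0.895 CPM, and CATIP, the nearest gene on the other side, at 1.05 and 0.00521 CPM, were too low to be tested and were also higher in macrophages by their means.

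**Figure D5:**
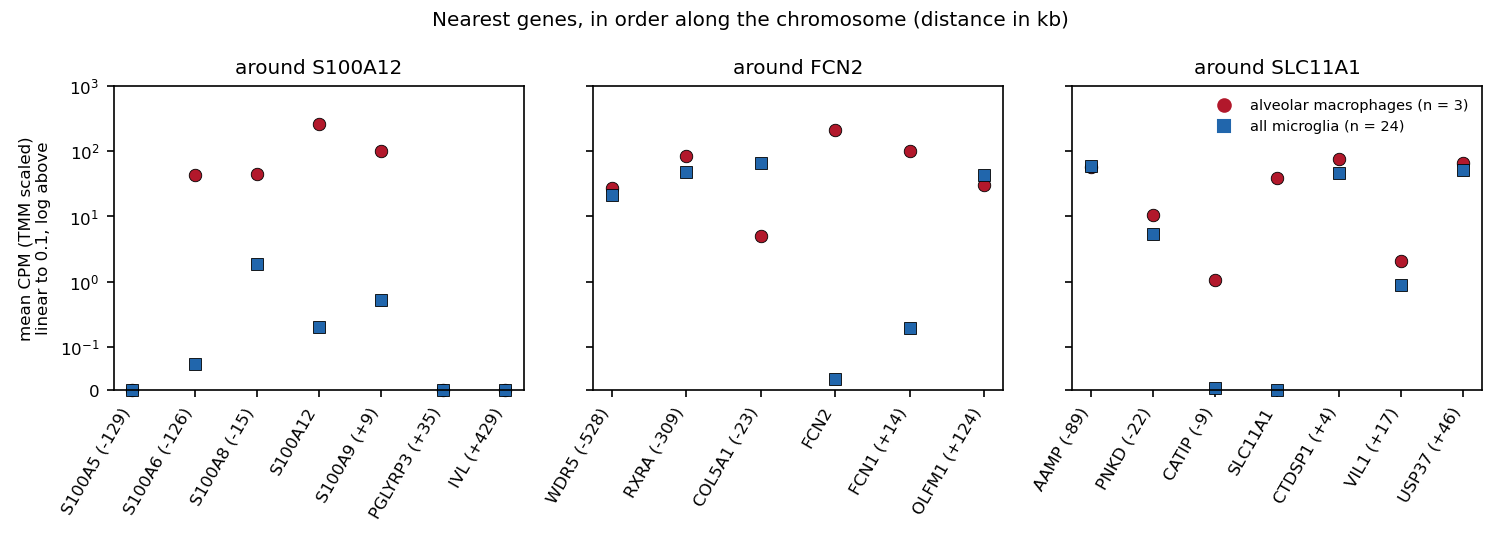
Mean CPM (linear to 0.1, logarithmic above) in macrophages (red circles, n = 3) and all microglia (blue squares, n = 24) for each gene and its nearest annotated neighbours matched to the data, in order along the chromosome, with distances in kb. S100A8, S100A9 and FCN1 lie apart between the cells as S100A12 and FCN2 do, while the neighbours of SLC11A1 at over 10 CPM lie close together.

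The genes whose levels over the 31 samples were most like those of each gene were found by Pearson's r of log2 CPM among 10133 tested genes with a symbol. All such values rest mainly on the gap between the 3 macrophage libraries and the other 28. For SLC11A1 they were ADGRE3 (r = 0.999), ADGRE1 (0.999), the decoy receptor gene IL1R2 (0.991), the T cell gene CD28 (0.989) and TNIP3 (0.988). For FCN2 they were ADGRE1 (0.981), ADGRE3 (0.980), SLC11A1 (0.979), TNIP3 (0.977) and THEMIS (0.976), a T cell gene. For S100A12 they were the B cell gene POU2AF1 (0.928), S100A4 (0.926), SLC11A1 (0.920), ADGRE1 (0.919) and the lectin gene CLEC17A (0.919).

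Likeness over all samples hid differences among the macrophages. ADGRE1 had the same order over the pigs as S100A12, at 63.0, 75.3 and 142 CPM in pigs 12821, 12829 and 12984. POU2AF1 went the other way, at 88.3, 27.0 and 24.1 CPM, although it was the closest to S100A12 over the 31 samples. CD28 was at 24.8, 32.6 and 17.4 CPM, lowest where SLC11A1 was highest. Between the 3 genes themselves r was 0.979 for FCN2 and SLC11A1, 0.920 for S100A12 and SLC11A1 and 0.912 for S100A12 and FCN2.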

How the data were processed

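Per the study's methods, the authors trimmed paired-end reads of 50 bases from stranded total RNA libraries, aligned them with HISAT2 to Sscrofa11.1 (Ensembl release 99), and counted genes with StringTie. The deposited values are these raw counts, which StringTie derives from coverage; its read length and strand settings are not given in the sources used here. The build of the reference used for positions is the same. A gene was tested if every sample of some group exceeded 10 CPM. Counts were scaled by TMM (factors 0.823 to 1.16) and fitted in 1 model of 5 groups by edgeR 4.0.16, robust quasi-likelihood (R 4.3.3). Adjusted p-values (Benjamini-Hochberg, all 11633 genes tested) had to be under 0.01, and folds over 3 against macrophages and over 4 against tissue. Levels between genes are CPM per kb of RefSeq exon. Log2 CPM uses a prior count of 2.

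The 3 genes, the lists and the neighbour and likeness rules were chosen with earlier results of these data known. Named genes are the 3 genes, list genes, the 5 genes most like each and up to 3 nearest genes on each side that could be matched to the data. Symbols came from the study's supplementary tables (3689 identifiers) and a gene name table (11778 more). The fit was also run on simulated data with large changes and the same spread for all genes. That setting is unlike the sparse brain counts of the 3 genes, so nothing about them is read from it. No 2 replicates were copies, with a lowest chi-square per degree of freedom of 18.9.

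Tag numbers in the sample titles mark the pig, so equal numbers pair samples. The mean correlation of same-pig deviations was 0.0373 for hippocampal microglia and tissue and 0.0568 for macrophages and microglia, against -0.00583 and -0.00255 between pigs, and 0.109, 0.08 and 0.216 between cerebellar and frontal cortex, cerebellar and hippocampal, and frontal cortex and hippocampal microglia. Alternatives were limma-voom (limma 3.58.1), DESeq2 1.42.0, RLE or no factors, other filters, pig as a replicate block, only the groups compared, an adjusted p of 0.05 and leaving out each sample. The result of 1 listed gene is not reported here.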

Additional observations from a re-analysis of the deposited data

Results flagged for a closer look

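In 12 groups of 4 to 8 samples (3 genes in the 4 brain groups), 3 samples lay apart from the rest of their group by Dixon's criterion. Its usual rate by chance, about 1 of 20 groups, does not hold for counts this sparse, since any single library with counts among libraries at 0 meets it and a group wholly at 0 cannot. S100A12 in the frontal cortex microglia of pig 12902 was at 1.32 CPM (41 counts), with a gap to the next library of 0.577 of the group's range. S100A12 in the hippocampal microglia of pig 12872 was at 0.762 CPM (21 counts), where the other 7 libraries had none. S100A12 in the hippocampal tissue of pig 12829 was at 0.116 CPM (4 counts), where the other 3 libraries had none, and that value is close to the floor of 3 counts.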

How the results depend on the processing

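Pig as a replicate block, with equal tag numbers pairing the samples, moved some counts of calls. As a fixed effect it left 85 of 236 calls over the 3 regions. It left 0 for cerebellar and 1 for frontal cortex against hippocampal microglia, and 8 listed genes higher in macrophages. The fitted FCN2 log2 difference for microglia minus macrophages, a description, was -11.27 in place of -13.26. The FCN2 microglia mean lay under the floor, so only the bound of at least 1885-fold is read. As a random effect in limma-voom the block gave 381 calls for cerebellar against frontal cortex microglia. S100A12 was then at -11.40, against -11.69 in limma-voom without the block and -10.52 by edgeR. The block changed no call of S100A12 or FCN2; SLC11A1 has no estimate in it.

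The filters mattered for counts of genes. With filterByExpr, 2548 genes were higher in macrophages, and 2120 higher and 4963 lower in hippocampal microglia than in tissue; with no filter these were 3035, 2097 and 5771, 22 listed genes were higher in macrophages, and the pairs of frontal cortex with cerebellum and hippocampus had 129 and 17 calls. The numbers with the stated filter were 1176, 1363, 2567, 14, 217 and 37. DESeq2 called 790 genes over the regions and 511, 452 and 391 in the pairs (cerebellar against frontal cortex, cerebellar against hippocampal, frontal cortex against hippocampal), and an adjusted p of 0.05 called 927, 586, 424 and 281. Fitting only the groups compared gave 120 over the regions and 32 and 15 for the pairs with the hippocampus, and limma-voom 45 for cerebellar against hippocampal microglia. The cause of these shifts was not tested. At 0.05 FCN2 would be called against hippocampal tissue (adjusted p = 0.0226, edgeR), with a range of 0.0175 to 0.632 over the other settings and of 0.0121 to 0.0635 with 1 sample left out.

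With 1 sample left out at a time, calls over the regions ran from 154 to 335, and in the pairs, in the order above, from 141 to 234, 35 to 135 and 15 to 107. The S100A12 description ran from -12.03 to -9.86. Its regional adjusted p ran from 0.0461, without the hippocampal microglia of pig 12872 that hold all its hippocampal counts, to 0.605 (edgeR). Its cerebellar minus hippocampal difference ran from -0.041, a change of sign without the cerebellar microglia of pig 12758, to 5.19 without those of pig 12872. By Spearman's rho, 0, 0 and 3 of the 5 genes most like S100A12, FCN2 and SLC11A1 stayed among the nearest 5. Of the 27 results followed over the fits, the rest kept their direction and their side of the threshold. Calls of single listed genes were not followed over the fits. In the brain samples 3 counts stand for up to 0.146 CPM.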
